A study of Mus musculus with 2 samples.

Results

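Gal, the gene of the galanin precursor, and Penk, the gene of proenkephalin, were followed across lung cell types in 2 droplet single-cell RNA libraries, 1 prepared 6 h after hepatic ischemia-reperfusion (HIR) and 1 after sham surgery. They are 2 of the 32883 features in the count tables, found by symbol, with the identifiers ENSRNOG00000015156 (Gal) and ENSRNOG00000008943 (Penk). Both genes were picked with their counts by cell type and library already known, so the difference between the libraries is a description here and no test was made of it. Each value is a count of UMIs (unique molecular identifiers, 1 per captured RNA molecule), or that count per 1000000 UMIs of the same cells (CPM).

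Both libraries are of lung from wild type animals, dissociated with collagenase, elastase and DNase. In HIR the blood supply of the liver is interrupted and restored, and the lung is an organ at a distance from the injury. Each group has 1 library, and the strain, the age and the number of animals behind a library are not given in the sources used here. A time after surgery is listed for the HIR library only. The labels name mouse and the submitters' processing notes name mm10, whereas all 32883 identifiers are Ensembl rat identifiers, so symbols were read as rat symbols; what set this difference was not tested. The HIR library held 50801778 UMIs in 9499 barcodes, of which 7925 were kept as single cells, and the sham library held 59566745 UMIs in 10719 barcodes, of which 8574 were kept. Stromal cells, recognised by collagen genes and Pdgfra, Pdgfrb and Lama2, made up 1912 of the HIR cells and 2588 of the sham cells, with a median of 3000 UMIs per HIR cell and 3212 per sham cell. With no second library in either group, the intervals below hold counting error alone and say nothing of the spread between animals.

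Galanin is a neuropeptide that is cut out of its precursor at pairs of basic residues, amidated at its end and recognised by the G protein-coupled receptors Galr1, Galr2 and Galr3. Proenkephalin carries several copies of met-enkephalin and a single leu-enkephalin, the opioid peptides that act on the delta and mu opioid receptors (Oprd1 and Oprm1). Both precursors are best known from neurons and endocrine cells. Neurons raise Gal after nerve injury, and Penk RNA is known from mesenchymal tissue of rodent embryos as well as from brain and adrenal medulla.

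The coding sequences below show what is cut from each precursor, because the receptors and peptidases described further on act on these peptides. They were read from GENCODE M21 (mouse, GRCm38), since no rat genome was used here. Capitals mark the codons of galanin or of the enkephalin pentapeptide, and lower case the codons beside them. The mouse Gal gene lies on the minus strand at chr19:3409915-3414544, and the 29 codons (87 bases) of galanin fall in coding exons between chr19:3411601-3413334, with an intron inside.
galanin: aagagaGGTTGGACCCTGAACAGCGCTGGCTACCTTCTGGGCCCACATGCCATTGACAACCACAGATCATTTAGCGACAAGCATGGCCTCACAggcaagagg
Lysine and arginine codons flank galanin, and the glycine codon after it is the one used for amidation.

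The mouse Penk gene lies on the minus strand at chr4:4133531-4138819, and its 268-codon reading frame holds 7 enkephalin copies, all in exon 2. There are 6 met-enkephalin copies and 1 leu-enkephalin copy of 5 codons each, and the lines follow their order in the precursor.
met-enkephalin 1: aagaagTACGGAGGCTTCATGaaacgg
met-enkephalin 2: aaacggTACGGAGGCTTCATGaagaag
met-enkephalin 3: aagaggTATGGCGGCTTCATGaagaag
met-enkephalin 4: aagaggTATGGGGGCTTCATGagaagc
met-enkephalin 5: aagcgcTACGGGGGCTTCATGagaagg
leu-enkephalin: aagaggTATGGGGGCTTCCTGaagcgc
met-enkephalin 6: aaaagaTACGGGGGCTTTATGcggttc
Met-enkephalin copies 4 and 6 are not followed by a pair of basic codons, and these are the copies known to be released also as extended peptides. The 7 copies use 6 distinct spellings, and the leu-enkephalin copy differs from met-enkephalin copy 4 in its last codon. One Penk transcript therefore encodes several active peptides, whereas a Gal transcript encodes a single galanin.

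Cells were placed by marker genes into 5 named stromal gates. Adventitial fibroblasts, the fibroblasts around vessels and airways, were taken by Pi16, Clec3b, Dpt and related genes, and alveolar fibroblasts by Tcf21, Itga8, Npnt and Fgfr4. The other gates held stroma with Wnt11, Lum and Dcn, smooth muscle cells or myofibroblasts (Acta2, Myh11, Tagln) and pericytes (Higd1b, Cox4i2, Kcnj8). Apart from Scn7a and Cd248, each marker of these gates was higher in its gate than in the other cells of the same library. Cells were gated by these same markers, so this describes the gates and does not check them. Scn7a had 14.3 CPM in HIR alveolar fibroblasts and 17.5 CPM in other HIR cells, and in sham 11.9 CPM and 25.3 CPM. The summed level of Wnt11, Lum and Dcn was 4441 CPM in its own HIR gate and 3463 CPM in HIR adventitial fibroblasts. In sham it was 4040 CPM and 3871 CPM, so this list set these gates apart only weakly. Alveolar fibroblasts also carried adventitial markers. Their summed level there was 2816 CPM in HIR and 5061 CPM in sham, beside 5071 CPM and 6318 CPM for the alveolar list. Pi16 had 1958 CPM in HIR adventitial fibroblasts and 22.6 CPM in all other HIR cells, and in the sham library 2116 CPM in these fibroblasts and 32.0 CPM in the other cells. Cd248 was at 0 UMIs in both libraries and marked no cell.

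Across all stromal cells both precursors were higher in the HIR library. Gal had 928 UMIs in 140 of 1912 HIR cells and 97 UMIs in 27 of 2588 sham cells. This is 134 CPM (95% counting interval 126 to 143) in HIR and 9.52 CPM (7.72 to 11.6) in sham, a ratio of 14.1 (11.4 to 17.6). Penk had 844 UMIs in 195 HIR cells and 179 UMIs in 103 sham cells. Its level was 122 CPM (114 to 131) in HIR and 17.6 CPM (15.1 to 20.3) in sham, a ratio of 6.95 (5.90 to 8.21). The intervals of the libraries do not overlap for either gene, but the share of all genes with this property was not counted. Small differences can also exceed counting error at these totals, as for Fos with a ratio of 1.25 (1.23 to 1.28). Without cells over 20000 UMIs the Gal ratio was 28.5, on 900 HIR and 47 sham UMIs. Of the 10023 genes with at least 50 UMIs in stromal cells, 2.03% were over 2-fold higher in HIR and 2.58% over 2-fold lower, and the median ratio was 1.02. By size of ratio Gal stood at place 1 and Penk at place 5 of these genes, which restates how the pair was picked.

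Stroma held most of both RNAs. Of all Penk UMIs in kept cells, 98.5% were in stromal cells in the HIR library and 96.8% in the sham library. For Gal the stromal share was 83.4% in HIR and 61.8% in sham, and a further 170 HIR and 52 sham UMIs were in endothelium. The label of a stromal pair therefore describes Penk closely, and Gal with an endothelial part that is described after the stroma.

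**Figure D1:**
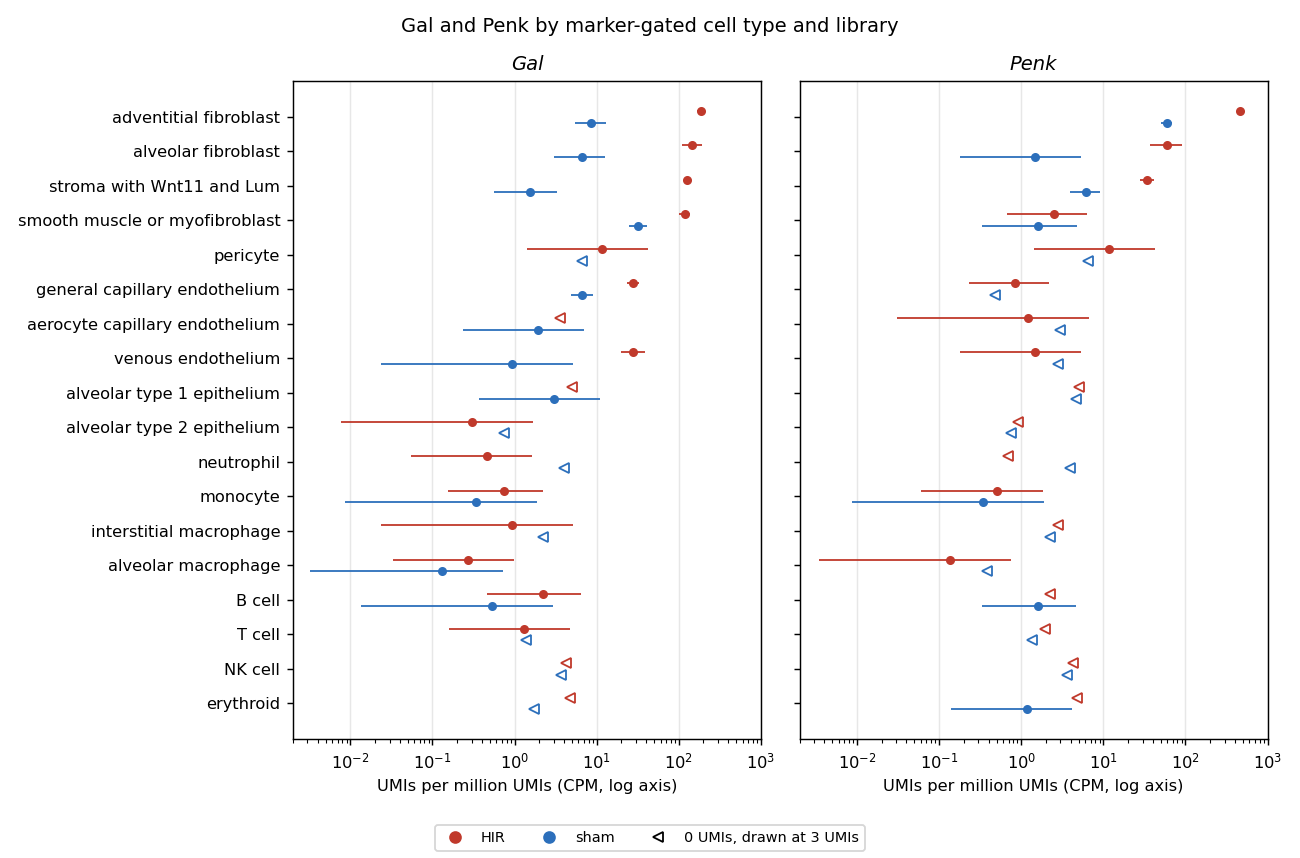
Levels of Gal (left) and Penk (right) in CPM (log axis) in each marker gate with at least 50 cells in both libraries, HIR in red above sham in blue. Bars are exact 95% Poisson intervals, and open triangles stand for 0 UMIs, drawn at the level of 3 UMIs. Penk is highest in adventitial fibroblasts (467 CPM in HIR, 58.8 CPM in sham), while HIR Gal lies between 117 and 187 CPM in the 4 fibroblast and muscle gates.

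Penk was a gene of adventitial fibroblasts. This gate gave 84.0% of stromal Penk UMIs in HIR and 83.8% in sham, although it held only 316 of the HIR and 473 of the sham stromal cells. Its cells had 709 Penk UMIs in HIR and 150 in sham, or 467 CPM (433 to 503) against 58.8 CPM (49.8 to 69.0). The ratio was 7.95 (6.65 to 9.54), beside 3.39% of 6691 genes over 2-fold higher and 3.05% over 2-fold lower in the same gate. A Penk UMI was found in 158 HIR cells, 50% (44.4 to 55.6), and in 85 sham cells, 18.0% (14.6 to 21.7). The HIR cells were the shallower ones, with a median of 4273 UMIs against 5203 in sham. After each cell was thinned to 1500 UMIs, which left out 14 HIR and 21 sham cells, 33.4% of HIR cells and 7.74% of sham cells had a Penk UMI. B cells are given for comparison. They had a Penk UMI in 0 of 468 HIR cells and 2 of 692 sham cells (0.289%), at medians of 2502 UMIs in HIR and 2219 in sham. In B cells a Gal UMI was seen in 3 HIR cells (0.641%) and 1 sham cell (0.145%). Adventitial fibroblasts were 16.5% of HIR and 18.3% of sham stromal cells. The part of this share in the stromal Penk level was not tested.

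Grouping the cells by clustering instead of by marker gates sharpened this picture. Leiden clustering of both libraries, computed with Gal and Penk left out, put 238 HIR and 360 sham cells into cluster 8. Its leading genes were Ccl11 (eotaxin, which draws eosinophils), Serpinf1, Pi16, Col1a1, Rbp4 and Sfrp2, and 85.8% of its cells were in the adventitial gate. The cells of this cluster had 807 Penk UMIs in HIR and 176 in sham, beside 844 in HIR and 179 in sham over the stromal gates. A Penk UMI was seen in 75.2% (69.2 to 80.6) of its HIR cells and in 27.8% (23.2 to 32.7) of its sham cells, and after thinning in 50% of HIR and 11.2% of sham cells. Its level was 595 CPM in HIR and 76.7 CPM in sham, a ratio of 7.76 (6.58 to 9.18). Of the Penk UMIs of the adventitial gate, 704 of 709 in HIR and 149 of 150 in sham lay in cluster 8. That cluster held 203 of the 316 HIR and 310 of the 473 sham cells of the gate. The 56 HIR cells of the gate in cluster 18 had 0 Penk UMIs. The gate markers were not left out of the clustering, and Pi16 and Scara5 were among the leading genes of cluster 8. The gate and the cluster are therefore not independent.

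Outside cluster 8 there was little Penk. The gate of stroma with Wnt11 and Lum had 107 Penk UMIs in 28 of 1032 HIR cells and 24 UMIs in 14 of 1298 sham cells, a ratio of 5.62 (3.58 to 9.15), beside 2.24% of 8078 genes over 2-fold higher and 1.94% over 2-fold lower. However, 103 of these HIR UMIs came from 34 cells of the gate that the clustering put in cluster 8, and all 24 sham UMIs came from 44 such cells. Clusters 7 and 18, which hold most of this gate, had 3 and 5 Penk UMIs in HIR and 0 in sham. Alveolar fibroblasts had 21 Penk UMIs in 4 of 86 HIR cells, 17 of them in a single cell, and 2 UMIs in 2 of 275 sham cells. Smooth muscle cells or myofibroblasts had 4 Penk UMIs in HIR and 3 in sham, and pericytes had 2 in HIR and 0 in sham. Penk in muscle was too rare to compare at this depth, with a ratio of 1.53 and an interval of 0.259 to 10.5.

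**Figure D2:**
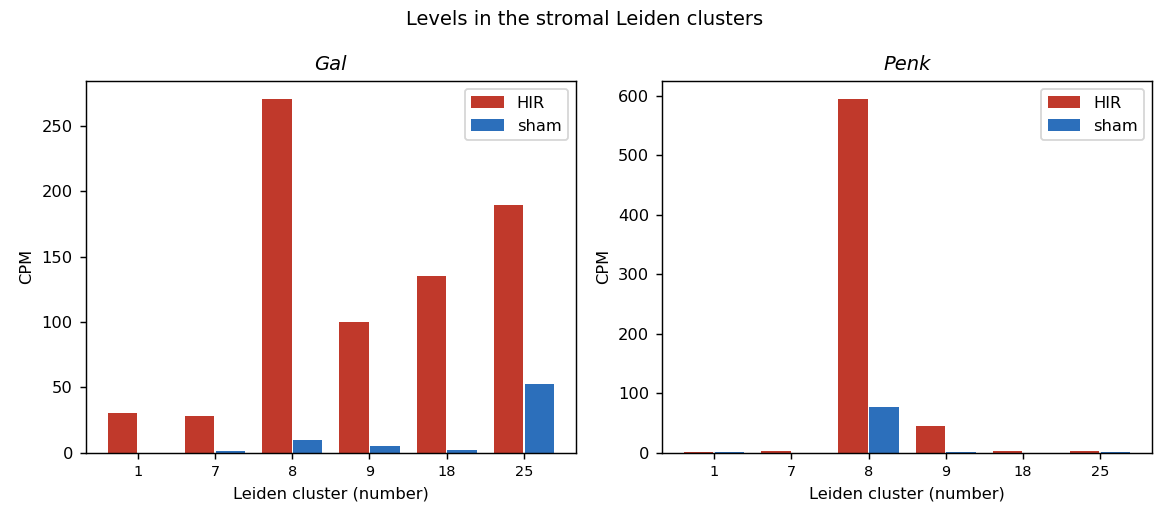
Levels of Gal (left) and Penk (right) in CPM in the 6 stromal Leiden clusters with at least 50 cells in both libraries, HIR in red left of sham in blue, each cluster shown by its number. Penk stands in cluster 8 (595 CPM in HIR, 76.7 CPM in sham), and Gal in clusters 8, 25, 18 and 9 of the HIR library.

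Gal was spread more widely over the stroma than Penk. In adventitial fibroblasts it had 284 UMIs in 42 HIR cells and 22 UMIs in 12 sham cells, or 187 CPM (166 to 210) in HIR and 8.62 CPM (5.40 to 13.1) in sham. The ratio was 21.7 (14.1 to 35.2), or 12.3 as a mean over cells and 47.1 after thinning, which left 2 sham UMIs. A Gal UMI was seen in 13.3% of these HIR cells and 2.54% of the sham cells, and after thinning in 6.29% of HIR and 0.442% of sham cells. Only 30.6% of stromal Gal UMIs in HIR and 22.7% in sham came from this gate. In cluster 8 the level was 271 CPM in HIR and 9.59 CPM in sham, a ratio of 28.2 (18.4 to 45.6).

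Alveolar fibroblasts had 51 Gal UMIs in 9 HIR cells and 9 UMIs in 4 sham cells. This is 146 CPM (109 to 192) in HIR and 6.68 CPM (3.05 to 12.7) in sham, a ratio of 21.9 (10.7 to 50.5), beside 5.39% of 4248 genes over 2-fold higher and 6.8% over 2-fold lower. After thinning, 9.88% of HIR and 1.55% of sham cells had a Gal UMI, and the ratio was 7.96. All of these UMIs fell in cluster 9, which is led by Cxcl14, Itga8, Hsd11b1 and Tcf21. The gate held fewer cells in HIR than in sham, 86 against 275.

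In stroma with Wnt11 and Lum nearly all Gal was in the HIR library. The gate had 398 UMIs in 63 HIR cells and 6 UMIs in 3 sham cells, or 127 CPM (115 to 140) in HIR and 1.52 CPM (0.559 to 3.31) in sham, a ratio of 83.6 (38.1 to 229). One HIR cell held 148 of the UMIs, and without the highest cell of each library the ratio was 158, on 250 HIR and 2 sham UMIs. After thinning it was 39.2, below the 47.1 of adventitial fibroblasts, and its main interval overlapped that of alveolar fibroblasts. Of the HIR UMIs, 258 came from cells of cluster 18, led by Krt76, Wnt11, Notum and Wnt5a, 90 from cells of cluster 8 and 39 from cells of cluster 7, whose leading genes include Adamts8 and Cyp1b1. A Gal UMI was found in 6.10% of HIR cells and 0.231% of sham cells at nearly equal depth (a median of 2830 UMIs in HIR and 2839 in sham). The HIR share was above that of B cells, and the sham share was near it.

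Smooth muscle cells or myofibroblasts had Gal in both libraries, in sham mostly in a pair of very deep cells. There were 190 Gal UMIs in 21 of 360 HIR cells and 60 UMIs in 8 of 380 sham cells, or 117 CPM (101 to 135) in HIR and 32.3 CPM (24.6 to 41.6) in sham. The ratio was 3.64 (2.71 to 4.95), beside 2.1% of 6109 genes over 2-fold higher and 1.29% over 2-fold lower. In sham 34 of the 60 UMIs came from a cell with 54038 UMIs in all and 15 from a cell with 38291, and without cells over 20000 UMIs the ratio was 18.6 (162 HIR and 10 sham UMIs). With doublets kept it was 8.18, and as a mean over cells 6.94. Cluster 25, led by Actc1, Acta2, Myl9 and Des, had 175 of the HIR and all 60 of the sham UMIs of this gate. Cluster 1, led by Cnn1 and Myh11, had 23 Gal UMIs in HIR and 0 in sham. Pericytes had 2 Gal UMIs in 52 HIR cells and 0 in 141 sham cells, where 3 UMIs would be 17.5 CPM in HIR and 6.56 CPM in sham.

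In HIR the Gal levels of the 4 fibroblast and muscle gates lay between 117 and 187 CPM. Adventitial fibroblasts came first, but their interval overlapped that of alveolar fibroblasts, and the intervals of alveolar fibroblasts, stroma with Wnt11 and Lum and muscle overlapped one another. Single cells weighed on these levels. In stroma with Wnt11 and Lum 1 cell held 148 of 398 HIR UMIs, and in muscle 1 cell held 99 of 190. Counting intervals do not cover this. After thinning the HIR levels were 139 CPM in adventitial and 123 CPM in alveolar fibroblasts. They were 83.2 CPM in stroma with Wnt11 and Lum and 56.0 CPM in muscle. In sham the muscle gate came first on all UMIs, but this order rested on cells over 20000 UMIs, without which 10 of its 60 sham UMIs remained. After thinning the sham level was 15.2 CPM in muscle and 15.5 CPM in alveolar fibroblasts. Adventitial and alveolar fibroblasts overlapped in sham. For Penk the adventitial gate came first in both libraries, followed in HIR by alveolar fibroblasts and stroma with Wnt11 and Lum, whose intervals (37.2 to 91.9 and 28.0 to 41.3 CPM) overlapped.

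**Figure D3:**
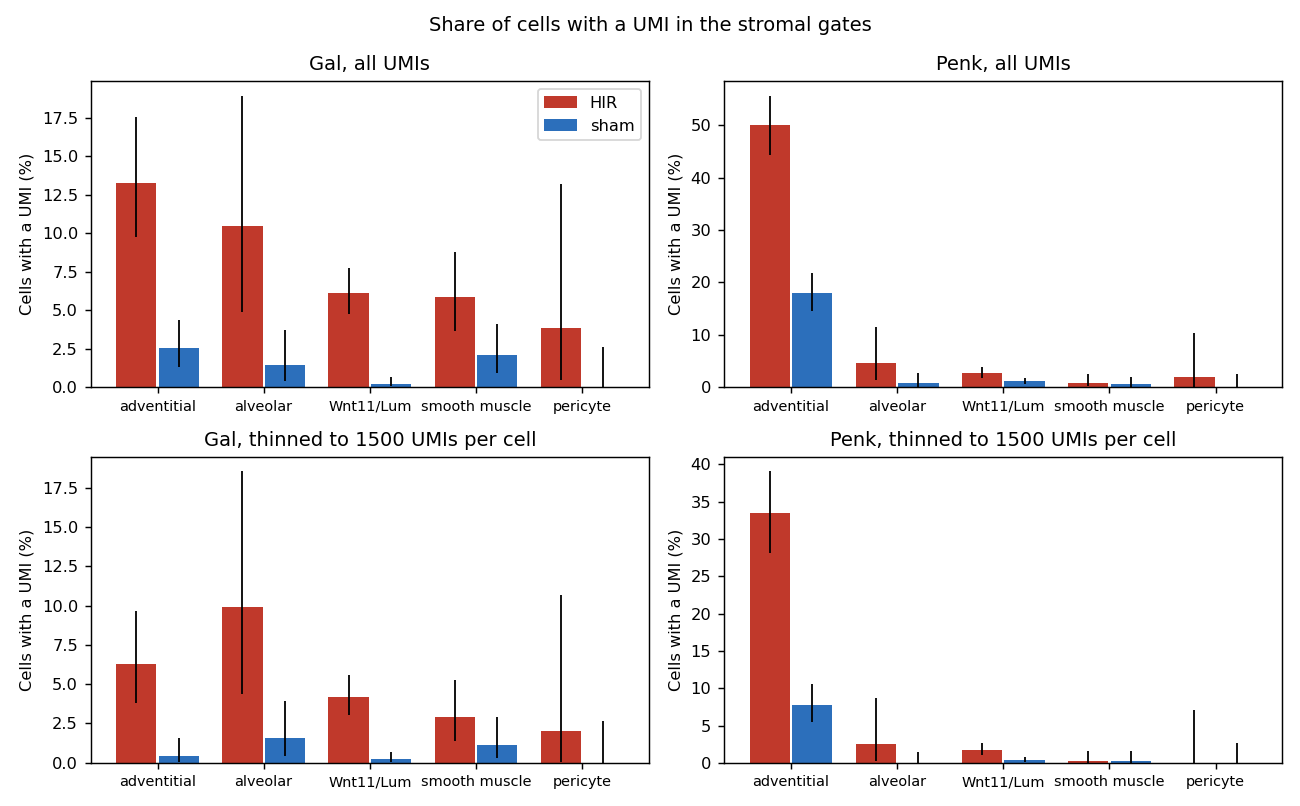
Share of cells with a UMI of Gal (left) or Penk (right) in the 5 stromal gates, from all UMIs (top) and after thinning each cell to 1500 UMIs (bottom), HIR in red left of sham in blue, with exact 95% binomial intervals. HIR shares lie above sham in the adventitial, alveolar and Wnt11 and Lum gates for Gal, and for Penk the adventitial gate stands apart (33.4% in HIR and 7.74% in sham after thinning).

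The genes differed in how their RNA was divided among cells. In the HIR stroma 5 cells held 41.1% of all Gal UMIs, and 9 cells were enough for 50% of them. The 4 highest cells had 148, 99, 53 and 53 Gal UMIs. The first of these had 5678 UMIs in all, so that Gal made up 26066 CPM of its RNA, and it lay in the gate of stroma with Wnt11 and Lum; the second lay in the muscle gate. For Penk the 5 highest HIR cells held 14.8% of the UMIs, and 36 cells were needed for 50%. The highest Penk cell, an adventitial fibroblast, had 36 Penk and 15 Gal UMIs. In the sham stroma 2 cells held 50% of the Gal UMIs and 28 cells held 50% of the Penk UMIs.

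The number of strongly positive cells differed between the libraries. At least 5 Gal UMIs were found in 35 HIR and 4 sham stromal cells, and at least 5 Penk UMIs in 62 HIR and 3 sham stromal cells. The median positive cell had 3 Penk UMIs in HIR and 1 in sham. Penk was thus seen in more cells and in more copies per positive cell in HIR. For Gal the median positive cell had 1.5 UMIs in HIR and 2 in sham, with a long tail in HIR.

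**Figure D4:**
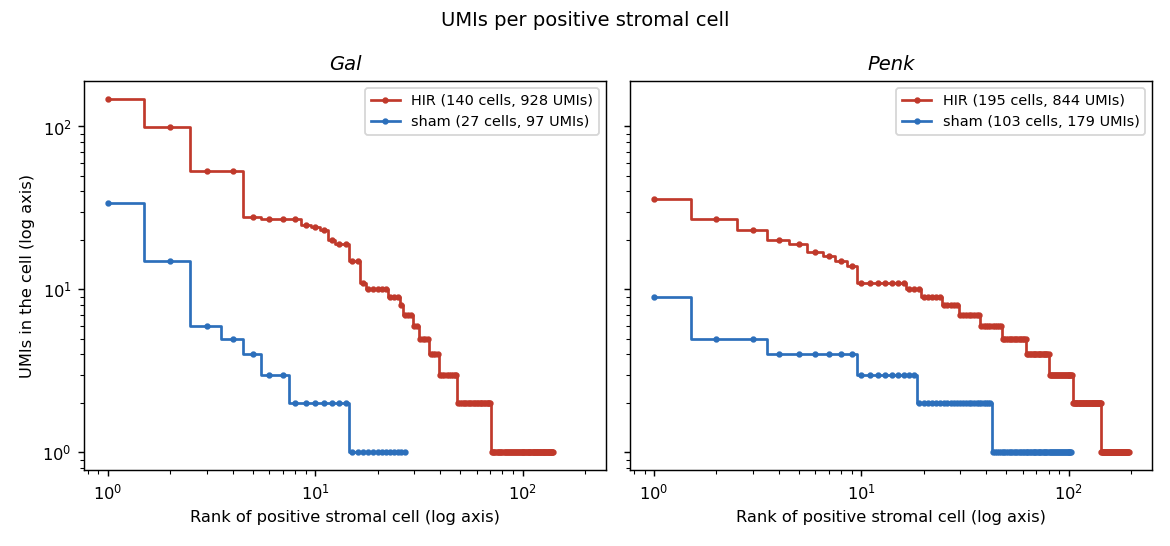
UMIs of Gal (left) or Penk (right) in each positive stromal cell, ranked from the highest (both axes log), HIR in red and sham in blue. The HIR Gal curve starts at 148 UMIs and drops steeply, and the HIR Penk curve starts at 36 UMIs and is flatter over 195 cells.

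Some cells held both RNAs. Among HIR adventitial fibroblasts, 33 of the 42 cells with a Gal UMI also had a Penk UMI (78.6%), as had 125 of the 274 cells without Gal (45.6%). The cells with Gal were deeper, with a median of 6172 UMIs against 4022. After thinning the shares were 52.6% of 19 cells with Gal and 32.2% of 283 cells without. In sham 4 of 12 cells with Gal (33.3%) and 81 of 461 without (17.6%) had a Penk UMI, and after thinning 0 of 2 with Gal and 7.78% of 450 without. In cluster 8 the Gal level was 309 CPM in Penk-positive and 131 CPM in Penk-negative cells of HIR, whereas in sham it was 7.31 CPM in Penk-positive and 10.6 CPM in Penk-negative cells. In alveolar fibroblasts no cell of either library had both, and in stroma with Wnt11 and Lum 4 HIR cells and 0 sham cells had both. Depth differed between the cells compared, and its part beyond the thinning was not tested.

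Endothelium carried Gal but hardly any Penk. General capillary endothelial cells had 130 Gal UMIs in 73 of 1315 HIR cells and 42 UMIs in 37 of 1577 sham cells. The level was 27.6 CPM (23.1 to 32.8) in HIR and 6.71 CPM (4.84 to 9.07) in sham, a ratio of 4.12 (2.89 to 5.98), beside 2.75% of 9005 genes over 2-fold higher and 1.67% over 2-fold lower. No cell held more than 10 Gal UMIs, so the level did not rest on a few cells as in the stroma. After thinning, 2.67% of HIR and 0.895% of sham cells had a Gal UMI. Venous endothelial cells had 38 Gal UMIs in 18 of 161 HIR cells and 1 UMI in 117 sham cells, or 28.0 CPM (19.8 to 38.4) in HIR and 0.929 CPM (0.0235 to 5.18) in sham. This is a ratio of 30.1 with a wide interval of 5.09 to 1221, beside 2.51% of 5347 genes with at least 50 UMIs over 2-fold higher and 2.69% over 2-fold lower. As a mean over cells it was 64.8, and without cells over 20000 UMIs it was 21.6. In HIR the 5 highest venous cells held 65.8% of the UMIs. After thinning, 5 of 159 HIR venous cells had a Gal UMI (3.14%, 1.03 to 7.19). In sham 0 of 113 had one (up to 3.21%), so the intervals of these shares overlap. Aerocytes, the capillary cells of gas exchange, had 0 Gal UMIs in HIR and 2 in sham. Penk had 8 UMIs in 1939 HIR endothelial cells and 0 in 2177 sham cells, which at the floor of 3 counts allows up to 0.138% of sham cells with a UMI.

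Immune and epithelial cells were close to empty of both RNAs. In 3310 HIR and 2937 sham immune cells there were 14 Gal UMIs in HIR and 5 in sham, and 5 Penk UMIs in HIR and 4 in sham. Epithelial cells had 1 Gal UMI in HIR and 2 in sham and no Penk. No cell was gated as neuroendocrine epithelium, a known lung source of peptides. The 6 HIR and 8 sham Schwann cells had no UMI of either gene.

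Markers of other cell types were found in the stromal gates at levels that differed between the libraries. The summed level of 6 neutrophil markers in the 5 named stromal gates was 367 to 587 CPM in HIR and 28.5 to 116 CPM in sham. Neutrophils themselves had 2 Gal and 0 Penk UMIs in 1301 HIR cells and none in 345 sham cells. The summed level of 6 alveolar type 2 markers was 664 CPM in HIR and 1053 CPM in sham stroma, and 530 CPM in HIR and 1575 CPM in sham cells with Wnt11 and Lum, with no marker at 0. Alveolar type 2 cells themselves had 1 Gal UMI in 231 HIR cells and 0 in 280 sham cells, and no Penk. In alveolar fibroblasts the summed level was 813 CPM in HIR and 461 CPM in sham, and in muscle 659 CPM in HIR and 400 CPM in sham. The 6 stromal compartment markers, collagens among them, were lower in HIR stromal cells, at 12957 CPM against 19909 CPM in sham. The part of these shifts in the CPM of the precursors was not tested. The median mitochondrial share of stromal cells was 7.11% in HIR and 7.59% in sham.

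The classical receptors of the peptides were nearly absent from the lung libraries. Over all kept cells Galr1 had 1 UMI in HIR and 0 in sham, and Galr3 had 0 in HIR and 1 in sham. Oprm1, the mu receptor, had 0 UMIs in HIR and 3 in sham, and Oprk1, the kappa receptor, had 0 in HIR and 1 in sham. Oprd1, the delta receptor, and the nociceptin receptor Oprl1 had none in either library. Galr2 is not in the feature table. At this depth their expression was not detectable in most gates, which does not show that it is absent.

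Nonclassical partners of the enkephalins were measured. Ogfr, the opioid growth factor receptor that binds met-enkephalin, had 36.0 CPM in HIR stroma and 34.6 CPM in sham stroma, a ratio of 1.04 (0.882 to 1.23). Ackr3, an atypical receptor that scavenges Cxcl12 and several opioid peptides, had 60.7 CPM in HIR and 71.2 CPM in sham stroma, a ratio of 0.853 (0.755 to 0.964). In adventitial fibroblasts, the cells richest in Penk, Ackr3 stood at 136 CPM in HIR and 183 CPM in sham. In venous endothelium Ackr3 had 1428 CPM in HIR and 1701 CPM in sham. Its level was not ranked over all gates. Of the 9 listed receptors 8 are in the feature table, these 2 had at least 20 CPM, and neither was over 2-fold apart. Among all 5633 stromal genes at that level 1.42% were over 2-fold higher and 1.94% over 2-fold lower in HIR.

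Of the genes that process precursors, the neuroendocrine convertases were nearly absent from the stroma. Pcsk1 and Pcsk2, the convertases of neurons and endocrine cells, had at most 3 UMIs each in the stroma of either library (Pcsk1 0 in HIR and 1 in sham, Pcsk2 1 in HIR and 3 in sham). The broadly expressed convertases were present. Pcsk5 had 210 CPM in HIR and 138 CPM in sham (ratio 1.52, 1.41 to 1.64), and Furin had 57.4 CPM in HIR and 58.9 CPM in sham. Pam, the enzyme that amidates peptides such as galanin, had 490 CPM in HIR and 486 CPM in sham, a ratio of 1.01 (0.965 to 1.05). Pcsk6 had 20.1 CPM in HIR and 17.2 CPM in sham (ratio 1.17, 0.930 to 1.47), and Pcsk7 had 19.4 CPM in HIR and 14.6 CPM in sham. In alveolar fibroblasts Pcsk7 had 25.8 CPM in HIR and 11.1 CPM in sham, on 9 HIR and 15 sham UMIs. Cpe, the carboxypeptidase of neuroendocrine granules, had 99 UMIs in HIR and 127 in sham stroma, or 14.3 CPM in HIR and 12.5 CPM in sham. Most of it lay in the muscle gate, with 55.6 CPM in HIR and 61.9 CPM in sham. Cpd, a carboxypeptidase that trims basic residues, had 61.6 CPM in HIR and 52.5 CPM in sham. Ctsl, cathepsin L, a protease that also cleaves proenkephalin in secretory vesicles of adrenal cells, had 1803 CPM in HIR and 755 CPM in sham, a ratio of 2.39 (2.32 to 2.46). In adventitial fibroblasts Ctsl had 1861 CPM in HIR and 862 CPM in sham. Of 12 listed processing genes 6 had at least 20 CPM in stroma, 5 of them higher in HIR, and 1, Ctsl, was over 2-fold higher. Their median log2 ratio was 0.17, beside 0.02 for all 5633 stromal genes at that level. Of those, 1.42% were over 2-fold higher and 1.94% over 2-fold lower.

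The peptidases that break enkephalins down did not share a direction. Mme (neprilysin) had 48 UMIs in HIR and 223 in sham stroma, or 6.94 CPM in HIR and 21.9 CPM in sham, a ratio of 0.317 (0.227 to 0.435). In alveolar fibroblasts, where it was highest, Mme had 63.0 CPM in HIR and 102 CPM in sham. In adventitial fibroblasts Mme had 13.8 CPM in HIR and 28.2 CPM in sham, a ratio of 0.490 (0.286 to 0.807). Alveolar fibroblasts were a smaller share of the HIR stroma, and the part of this in the stromal Mme level was not tested. Anpep (aminopeptidase N) had 7.52 CPM in HIR and 17.4 CPM in sham stroma. Ace (angiotensin-converting enzyme), under 20 CPM and named after its values were seen, had 44 UMIs in HIR and 19 in sham stroma. This is 6.36 CPM in HIR and 1.87 CPM in sham, a ratio of 3.41 (1.95 to 6.19). Ece1 (endothelin-converting enzyme) had 118 CPM in HIR and 73.6 CPM in sham, a ratio of 1.60 (1.45 to 1.77). The cytosolic Npepps had 61.2 CPM in HIR and 51.0 CPM in sham, and Dpp3 had 23.0 CPM in HIR and 19.4 CPM in sham. Of 7 listed genes 4 had at least 20 CPM, 1 of them (Mme) was over 2-fold lower in HIR and none was over 2-fold higher. The median log2 ratio of the 4 was 0.19, beside 0.02 for all 5633 stromal genes at that level. Of those, 1.42% were over 2-fold higher and 1.94% over 2-fold lower.

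Few other peptide precursors were expressed in the stroma. Of 22 listed genes 21 are in the feature table, and Adm, the vasodilator adrenomedullin, was alone in having 20 CPM, with 116 CPM in HIR and 77.7 CPM in sham (ratio 1.49, 1.35 to 1.65). Among the opioid and galanin relatives, Pomc had 3.90 CPM in HIR and 3.73 CPM in sham, Pdyn and Spx had no UMI, Pnoc had 5 UMIs in HIR and 2 in sham, and Galp had 0 in HIR and 1 in sham. A general appearance of neuropeptide genes was therefore not seen at this depth. Npy, Vip, Sst and Grp had 0 UMIs in stromal cells of both libraries.

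Genes known to act upstream of the precursors in neurons were compared last. Factors of the cyclic AMP and AP-1 element of Penk were abundant in both libraries. Of 10 listed genes 8 had at least 20 CPM, 7 of these were higher in HIR and none was 2-fold apart. Their median log2 ratio was 0.30. All 5633 stromal genes at that level had a median log2 ratio of 0.02, and 1.42% were over 2-fold higher and 1.94% over 2-fold lower. Atf3 had 197 CPM in HIR and 111 CPM in sham stroma (ratio 1.77, 1.64 to 1.92). Junb had 1747 CPM in HIR and 1178 CPM in sham (ratio 1.48), Fos had 2383 CPM in HIR and 1899 CPM in sham (ratio 1.25), and Nr3c1, the glucocorticoid receptor, had 107 CPM in HIR and 127 CPM in sham. The AP-1 subunits Jun and Jund had 1866 and 1460 CPM in HIR, against 1439 and 1320 CPM in sham. Fosb had 1051 CPM in HIR and 864 CPM in sham, and Crem, a modulator of cyclic AMP responses, had 34.0 CPM in HIR and 29.3 CPM in sham. In adventitial fibroblasts Fos had 2188 CPM in HIR and 1885 CPM in sham, and Atf3 had 100.2 CPM in HIR and 78.0 CPM in sham. In alveolar fibroblasts Atf3 had 8.59 CPM in HIR and 26.7 CPM in sham, on 3 HIR and 36 sham UMIs. Fos had 1377 CPM in HIR and 1606 CPM in sham there, a ratio of 0.857 (0.775 to 0.947). The part of these factors in the levels of the precursors was not tested.

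Leukemia inhibitory factor and its relatives raise Gal in injured sensory neurons. In stroma Lif had 1 UMI in HIR and 3 in sham, and Il6 had 15 UMIs in HIR and 6 in sham. Their shared receptor subunit Il6st had 44.0 CPM in HIR and 29.5 CPM in sham, a ratio of 1.49 (1.26 to 1.75), and over the pooled stroma it was the only one of 8 listed genes with 20 CPM. Below that level, the leukemia inhibitory factor receptor Lifr had a pooled ratio of 1.17 (0.882 to 1.55). The pooled ratio was 1.23 for Osm, 2.62 (1.43 to 4.96) for Osmr, 0.911 for Socs3 and 0.687 for Cntf. By gate Lifr had 27.7 CPM in HIR and 13.7 CPM in sham adventitial fibroblasts, a ratio of 2.02 (1.26 to 3.26). In alveolar fibroblasts it had 11 UMIs in HIR and 27 in sham, a ratio of 1.57 (0.703 to 3.27). The oncostatin M receptor Osmr had 9 UMIs in HIR and 4 in sham alveolar fibroblasts, a ratio of 8.68 (2.42 to 38.6). Within gates Il6st had 54.0 CPM in HIR and 29.8 CPM in sham adventitial fibroblasts, and 123 CPM in HIR and 45.1 CPM in sham general capillary endothelium. In the muscle gate Il6st had 25.3 CPM in HIR and 26.9 CPM in sham. Among all genes with at least 50 UMIs, 3.39% were over 2-fold higher in HIR adventitial fibroblasts. The share was 5.39% in alveolar fibroblasts and 2.75% in general capillary endothelium. Osmr in alveolar fibroblasts did not reach 50 UMIs. The part of these cytokines and receptors in the Gal level was not tested.

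**Figure D5:**
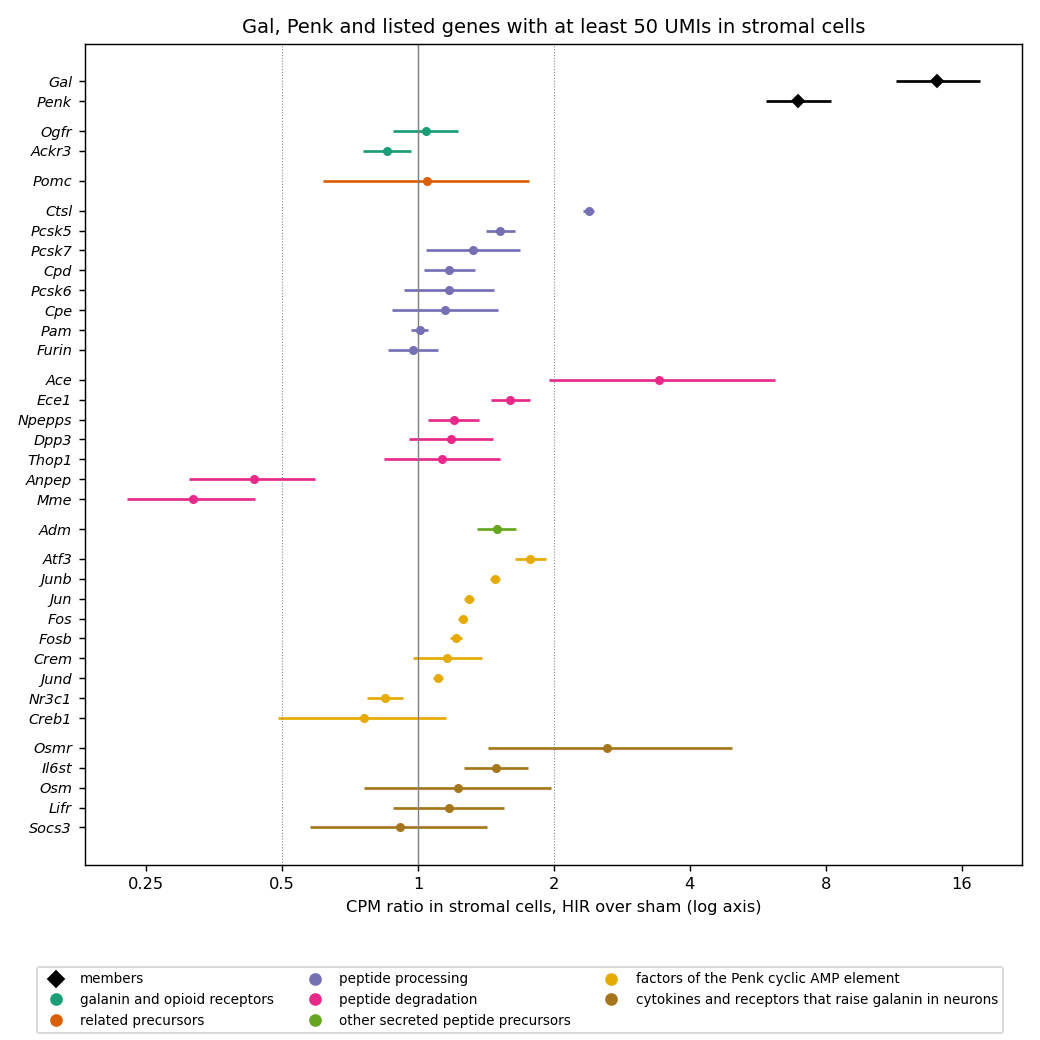
Ratio of CPM in stromal cells, HIR over sham (log axis), for Gal and Penk (black diamonds) and for listed genes with at least 50 UMIs over both libraries, coloured by list, with exact 95% counting intervals. The ratios of Gal (14.1) and Penk (6.95) are above those of the listed genes shown, among which Ace is at 3.41, with an interval that overlaps that of Penk, Osmr at 2.62, Ctsl at 2.39 and Mme at 0.317.

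The genes with the pattern most like each precursor were sought over 36 points, 18 gates in 2 libraries, by Pearson correlation of log2(CPM + 10) among 11167 genes. Points of 1 library share their depth and preparation, and the values are descriptions. For Penk the first 5 were Scara5 (0.94), a ferritin receptor that is itself a marker of the adventitial gate, Cldn1 (0.89), a tight junction protein, Ctsk (0.89), the collagen-cleaving cathepsin K, Cyp39a1 (0.88) and the alcohol dehydrogenase Adh6 (0.86). For Gal they were Aldoc (0.84), a glycolytic aldolase, Pdk4 (0.83), the kinase that shuts pyruvate dehydrogenase, Frzb (0.81), a secreted Wnt antagonist, Aox3 (0.81), an aldehyde oxidase, and the transcription factor Zbtb16 (0.78). Penk stood at place 31 for Gal and Gal at place 64 for Penk (0.72). In adventitial fibroblasts Aldoc had 75.8 CPM in HIR and 24.3 CPM in sham, Pdk4 had 21.7 CPM in HIR and 3.14 CPM in sham, and Zbtb16 had 38.9 CPM in HIR and 12.5 CPM in sham. Scara5 had 374 CPM in HIR and 261 CPM in sham there, and Cldn1 had 151 CPM in HIR and 85.4 CPM in sham.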

How the data were processed

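Lung cells were measured by 10x Genomics single-cell RNA sequencing in 1 HIR and 1 sham library. The deposited matrices hold counts of UMIs per gene and barcode, made by the authors with cellranger 5.0.0 per the file headers; Cell Ranger 6.0, STAR, Seurat 4.0 and mm10 are named in the submitters' processing notes. Cells needed 200 detected genes and no more than 20% of UMIs from mitochondrial genes. Doublets were the highest Scrublet scores (scanpy 1.11.5), removed at a rate of 0.8% for every 1000 barcodes. The libraries share 24 barcode sequences. Each cell was gated to a compartment and subtype by its marker sums, with at least 2 markers detected; 182 of 191 listed markers are in the feature table, and the scoring rule was set after the data were seen. Gal and Penk were left out of the clustering (igraph 0.11.9).

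UMIs were summed per gate and library and divided by the gate's total (CPM). Intervals are exact 95% Poisson, binomial (Clopper-Pearson) or conditional intervals of a ratio and cover counting error only. A count of 0 was given the floor of 3 counts. With 1 library per group nothing was tested. The members, gene lists and markers were chosen with earlier results of these data known. Listed genes with at least 20 CPM in a stromal gate were named, as were the 5 most alike genes, and other listed genes at low counts were named after their values were seen. On counts of 10703 genes simulated at the stromal totals the interval held the true ratio for 95.6% of unchanged genes and 95% of genes set 4-fold higher. These counts were drawn as Poisson counts from the summed profile of all barcodes, so this checks only the arithmetic of the interval. It does not cover the uneven division of Gal UMIs among cells.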

Additional observations from a re-analysis of the deposited data

How the results depend on the processing

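The main ratios were 14.1 for Gal and 6.95 for Penk in stromal cells, and every alternative kept both above 1. For Gal they ranged from 12.0 to 28.5 over 11 alternatives. It was 18.2 as a mean over cells, 28.5 without cells over 20000 UMIs (900 HIR and 47 sham UMIs) and 18.2 without the highest cell of each library, the last 2 chosen after seeing the data. For Penk the range was 5.98 to 8.47, the highest with equal weight to the 5 stromal gates, also chosen after seeing the data. Of genes with at least 50 UMIs 462 were over 2-fold apart in stroma, against 210 with at least 200 UMIs, where fewer genes were tested. By gate Gal ranged from 12.3 to 47.1 in adventitial fibroblasts, 7.96 to 22.0 in alveolar fibroblasts, 39.2 to 158 in stroma with Wnt11 and Lum, and 3.01 to 18.6 in the muscle gate. Penk ranged from 6.24 to 8.73 in adventitial and from 15.6 to 43.8 in alveolar fibroblasts. The alveolar range rests on very few UMIs. Its low end, without the highest cell of each library, had 4 HIR UMIs and 1 sham UMI, with an interval of 1.54 to 766. Thinning left 0 sham UMIs of Penk in this gate, so no ratio was formed. Pecam1 is not in the feature table and Cdh5 was used in its place. No paired analysis was possible because each group has 1 library. A UMI count near 0 in sham sets the width of the intervals.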

Other observations

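Barcodes called as doublets, left out of the main values, held Gal. In the stromal gates 100 HIR barcodes called as doublets had 293 Gal and 45 Penk UMIs, and 146 sham barcodes had 14 Gal and 21 Penk UMIs. Of the HIR Gal UMIs 265 lay in a single barcode of the muscle gate with 8233 UMIs in all, more Gal than in any kept cell. Arterial endothelium, with too few cells to compare, had 2 Gal UMIs in 52 HIR cells and 4 in 43 sham cells, and lymphatic endothelium had 0 in 6 HIR cells and 2 in 40 sham cells.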
